A study of Mus musculus with 25 samples.

Results

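Acod1 encodes aconitate decarboxylase 1, the enzyme that makes itaconate from cis-aconitate, an intermediate of the tricarboxylic acid (TCA) cycle. The gene is best known from activated macrophages, where itaconate slows succinate dehydrogenase and can release the antioxidant factor NRF2 from its inhibitor KEAP1. White fat holds adipocytes, progenitors, vessels and resident immune cells, and in obesity macrophages gather around stressed adipocytes and take up their lipid. The results below describe which genes differed between Acod1-/- and wild type (WT) mice on a high-fat diet (HFD) in the same direction in both white fat depots, epididymal (eWAT) and inguinal (iWAT).

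The change was read from all 18 HFD libraries of the 25 in the series, with genotype as the comparison and depot as a block. The groups were eWAT of WT mice (n = 5), eWAT of Acod1-/- mice (n = 5), iWAT of WT mice (n = 5) and iWAT of Acod1-/- mice (n = 3). All mice were male, labelled C57BL/6N as their strain and C57BL/6NJ in the treatment notes, and the Acod1-/- allele C57BL/6N-Acod1em1(IMPC)J was present throughout the body and from birth, so no cell type carried the loss alone. WT and Acod1-/- mice were littermates that received food with 60% of calories from fat from 5 weeks of age for 16 weeks, except that the labels give 17 and 18 weeks for iWAT Acod1-/- libraries 2 and 3. The 7 libraries from chow-fed WT mice hold no knockout and were not used. Each library is labelled as a separate sample, but the sources used here do not say whether the eWAT and iWAT libraries came from the same animals. If they did, the 18 libraries hold fewer than 18 mice. Deviations from the group mean correlated between same-numbered eWAT and iWAT libraries at -0.0818 to 0.581 over 5 WT pairs and at -0.152 to 0.169 over 3 Acod1-/- pairs. Differently numbered pairs ran from -0.387 to 0.274 in WT and from -0.393 to 0.45 in Acod1-/- mice. The value of 0.45 was that of eWAT Acod1-/- library 5 with iWAT Acod1-/- library 3. The edgeR fit took the libraries as independent. With same-numbered libraries of a genotype taken as related, limma called 1098 genes higher and 1675 lower over depots. That fit did not relate eWAT Acod1-/- library 5 to iWAT Acod1-/- library 3.

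Between 31.41 M and 51.66 M reads were counted on genes per library (median 41.02 M), and no pair of libraries in a group agreed within sampling noise. Acod1 itself (ENSMUSG00000022126, GRCm38 chr14:103046977-103056573, plus strand) could not check the genotype labels, because it was close to absent in fat of either genotype. In eWAT the 5 WT libraries held 9, 0, 2, 3 and 0 reads of Acod1 and the 5 Acod1-/- libraries 0, 2, 0, 2 and 0, and in iWAT the WT libraries held 2, 0, 0, 3 and 9 and the Acod1-/- libraries 0, 2 and 0. The two-sided exact permutation test gave p = 0.484 in eWAT and p = 0.571 in iWAT, where the smallest p these group sizes allow is 0.00794 and 0.0179. Adipocyte markers such as Adipoq and Plin1 were high in every library, with 18 of them summing to between 21700 and 56800 CPM (the reads of a gene scaled to a common library total). In eWAT this sum ran from 21700 to 49500 CPM in WT (median 35300) and from 40800 to 53400 in Acod1-/- libraries (median 51600). The iWAT medians were 50200 CPM in WT and 49900 in Acod1-/- libraries. Markers of other tissues were uneven between libraries. Epididymal epithelium genes summed to 375, 3.83, 35.2, 16 and 1230 CPM in the Acod1-/- libraries of eWAT. In the WT libraries of eWAT they summed to 1.94, 0.225, 0.227, 1.31 and 146 CPM. Skin and mammary epithelium genes summed to 849 CPM in iWAT Acod1-/- library 2 and to 29.9 or less elsewhere. T cell genes summed to 155 CPM in iWAT WT library 5 and to between 10.7 and 34.2 in the other iWAT libraries.

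A second feature of the libraries bears on every result below. The numbers at the start of the file headers fall into 2 runs, here called series 1 (14 HFD libraries) and series 2 (4 HFD libraries, 1 per group, namely eWAT WT 5, eWAT Acod1-/- 5, iWAT WT 5 and iWAT Acod1-/- 3). What the runs stand for is not stated. On the first principal component of depot-centred expression, which held 34.3% of the variance, the 6 Acod1-/- libraries of series 1 lay between 30.9 and 62.3 and the 8 WT libraries of series 1 between -57.4 and -2.70. The Acod1-/- libraries of series 2 lay at -22.0 (eWAT) and 4.59 (iWAT), beside the WT libraries of the same series at -8.77 and 0.740. The genotypes were thus apart on this axis in series 1 and not in series 2.

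**Figure D1:**
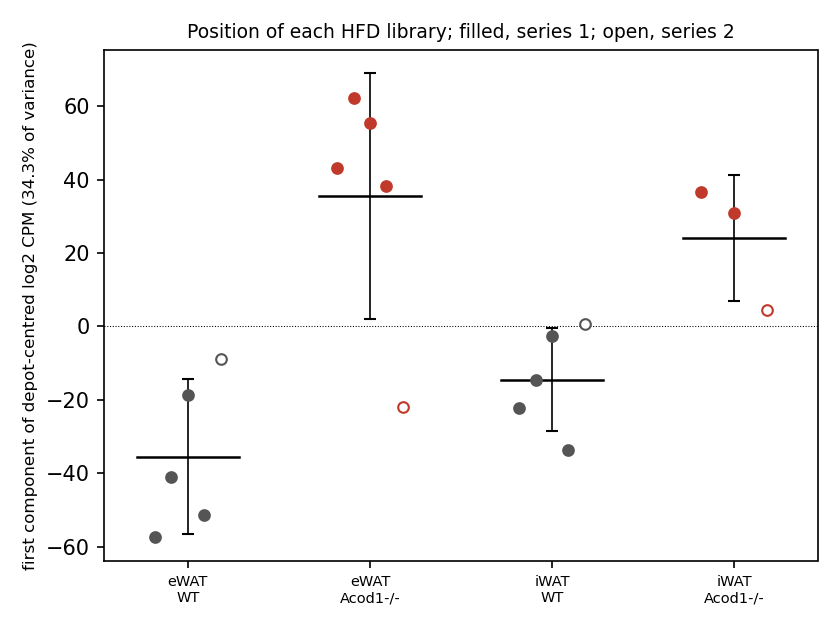
Position of each HFD library on the first principal component of log2 CPM after centring each depot, by group. Filled points are series 1, open points series 2, and lines and bars the mean and SD. All 6 series 1 Acod1-/- libraries lie above 30, whereas the 2 of series 2 lie at -22.0 and 4.59.

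Of the 13908 genes whose mean reached 1 CPM or more in each depot, 1603 were higher and 1831 lower in Acod1-/- fat over depots (edgeR quasi-likelihood test, Benjamini-Hochberg adjusted p under 0.1 over all genes tested). That is 11.5% of the genes tested higher and 13.2% lower. Called genes that were lower moved further, with a median log2 fold change of -0.69 against 0.47 for those that were higher, and 521 fell and 179 rose by 2-fold or more. The median over all genes tested was 0.02. Of the genes called, 1595 of 1603 and 1806 of 1831 had the same sign in the separate fits of eWAT and of iWAT, while 9392 of all 13908 genes (67.5%) did. The calls came from these same depots pooled, so the shared sign is no independent check. The sizes were larger in eWAT, where the median was 0.52 for the higher and -0.81 for the lower genes, than in iWAT, where it was 0.38 and -0.49. Complete separation in both depots, with each Acod1-/- library above each WT library of its depot, was found for 59 genes (0.424% of those tested), and with each one below for 129 (0.928%), all of them called. In bulk tissue, fewer cells of a type and less RNA per cell cannot be told apart.

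**Figure D2:**
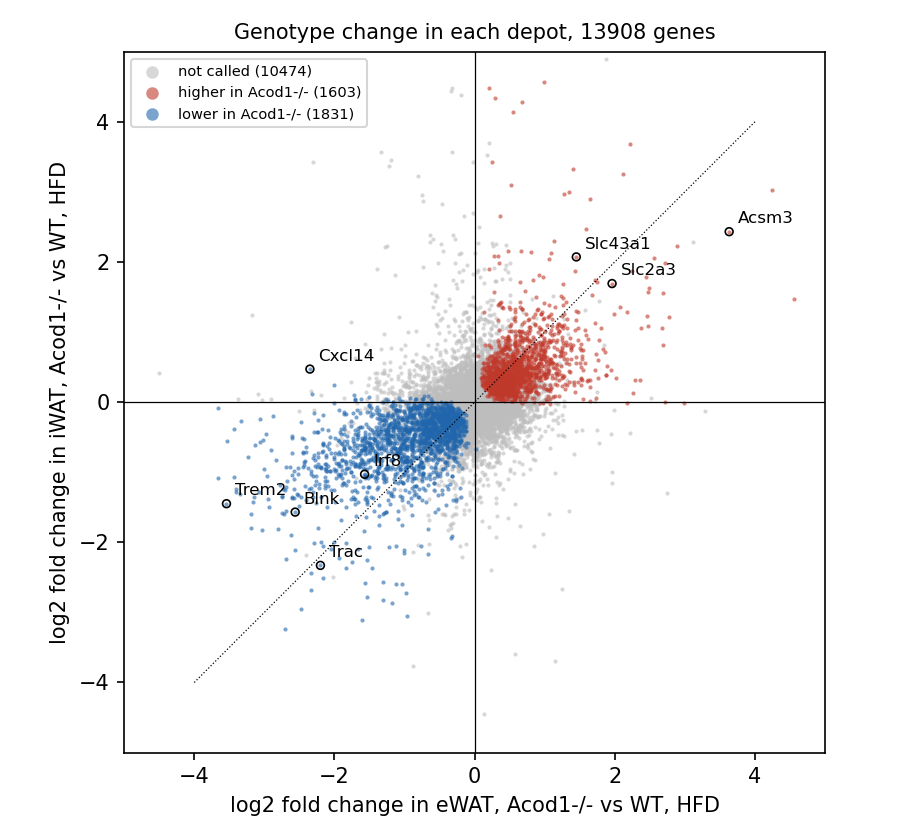
Log2 fold change of Acod1-/- against WT on HFD in eWAT (x) and iWAT (y), 1 point a gene, coloured by the call over depots, with a dotted line of equal change and 14 genes outside the axes. Called genes fill the quadrants of equal sign, and Cxcl14 lies outside them.

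Pooling the depots reached genes that neither depot gave alone. In eWAT alone 778 genes were higher (5.59% of those tested) and 1334 lower (9.59%), and in iWAT alone, with 3 Acod1-/- libraries, edgeR called none in either direction (0%), with 2151 genes at an unadjusted p under 0.05 and a smallest adjusted p of 0.190. DESeq2 called 344 higher and 526 lower in iWAT. The iWAT count also turned on single libraries: it was 25 and 25 without iWAT WT library 5 and 1159 higher and 1298 lower without iWAT Acod1-/- library 3, both of series 2. Of the genes called over depots, 953 higher and 689 lower were called in neither depot alone, and 320 genes called in eWAT were not called over depots.

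A call over depots is an average and does not by itself say that each depot moved. A stricter test that takes the larger of the 2 depots' p-values called 0 genes in edgeR (0%), with 815 at an unadjusted p under 0.05, and 6 higher and 6 lower in DESeq2. The test of whether the genotype change differed between depots also called 0 genes (0%), with 1158 at an unadjusted p under 0.05 and a smallest adjusted p of 0.115, while DESeq2 called 8 with a more positive change in iWAT and 3 with a more negative one. Without iWAT Acod1-/- library 3 the test of the difference called 74 and 47, and without iWAT Acod1-/- library 1 it called 17 and 0.

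The gene nearest to a difference was Cxcl14, a chemokine made by stromal and epithelial cells, singled out after its values were seen. In eWAT Cxcl14 was at 20.7, 17.7, 8.88, 24.1 and 12.2 CPM in WT and at 4.13, 1.92, 2.02, 2.30 and 5.91 CPM in Acod1-/- libraries. Its iWAT levels were 30.5, 45, 39, 43.5 and 56.4 CPM in WT and 72.1, 51.9 and 54.0 CPM in Acod1-/- libraries. The genotypes did not overlap in eWAT and overlapped in iWAT. The log2 fold change was -2.35 in eWAT and 0.47 in iWAT, a difference of 2.82 (adjusted p = 0.115, edgeR). Cxcl14 passed over depots at -1.03 ± 0.42 (SE, adjusted p = 0.0973, edgeR), a call lost in 11 of the 18 fits that left out 1 library.

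The 2 series did not give the same change. In series 1 alone 2349 genes were higher (16.9%) and 2541 lower (18.3%). Of the 2349, 1002 (42.7%) were also positive in series 2, where 50.5% of all genes tested were positive, and their median log2 fold change was 0.55 in series 1 and -0.05 in series 2. Of the 2541, 1206 (47.5%) were also negative in series 2, where 49.5% of all genes were, with medians of -0.73 and 0.03. In the eWAT pair of series 2 the shares were 34.5% and 41%, and in the iWAT pair 49.6% and 54.5%. A test of the genotype change between the series, with depot as a block, called 943 genes (6.78% of those tested), among them 222 of the genes higher and 257 of those lower over depots. Series 2 is 1 library per group, and its fit rests on 4 libraries. Genes called over depots drew on both series, so their agreement is no independent check: 65.4% of those higher and 68.0% of those lower had the same sign in series 2, with medians of 0.09 and -0.13 there against 0.58 and -0.85 in series 1. Values in series 2 are therefore given beside the leading genes and most of the gene lists.

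**Figure D3:**
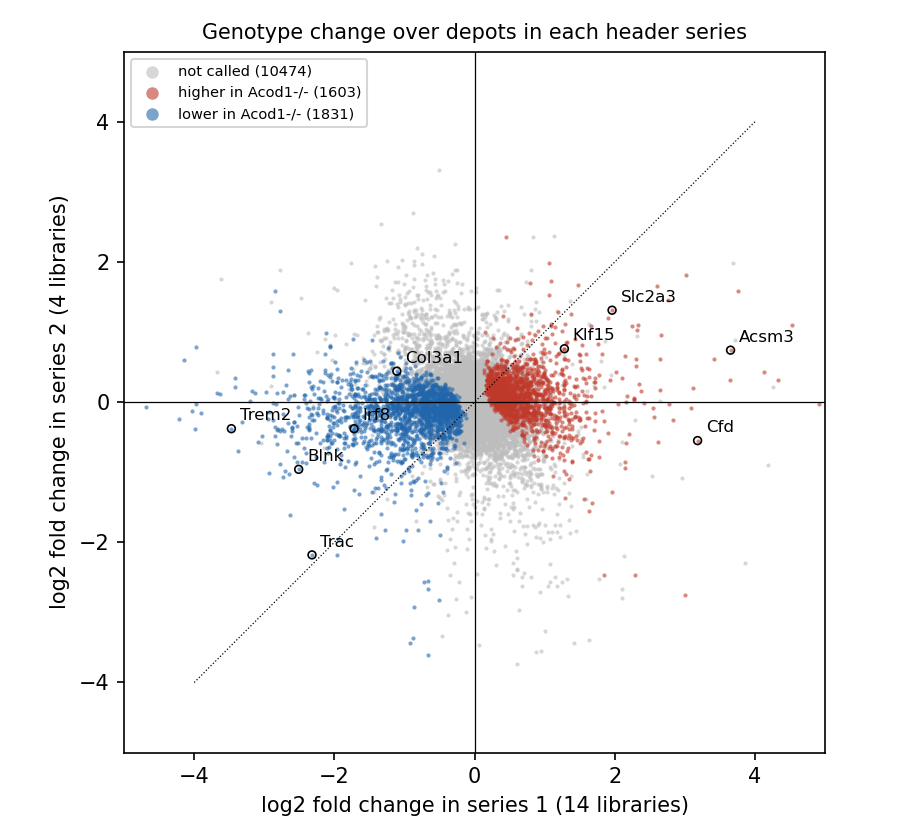
Log2 fold change over depots in series 1 (x, 14 libraries) and series 2 (y, 4 libraries), 1 point a gene, coloured by the call over all 18 libraries, with a dotted line of equal change and 6 genes outside the axes. Called genes spread along the x axis and centre near 0 on the y axis, with medians of 0.09 and -0.13, while Slc2a3 and Trac lie near the line.

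Genes of nutrient uptake and amino acid breakdown led those that were higher. Slc2a3 (ENSMUSG00000003153, GRCm38 chr6:122727809-122801640, minus strand), the high-affinity glucose transporter GLUT3, had the smallest adjusted p of all genes. In eWAT Slc2a3 was at 6.58, 5.33, 6.38, 3.33 and 5.49 CPM in the WT libraries and at 16.2, 13.9, 27.9, 35.0 and 12.5 CPM in the Acod1-/- libraries. The iWAT libraries held it at 4.04, 3.10, 2.86, 2.64 and 5.05 CPM in WT and at 12.3, 8.50 and 13.3 CPM in Acod1-/-. Each Acod1-/- library was above each WT library of its depot, the series 2 libraries included. Its log2 fold change was 1.84 ± 0.21 (SE) over depots (adjusted p = 0.000807, edgeR), 1.96 in eWAT and 1.69 in iWAT, with 1.96 in series 1 and 1.31 in series 2.

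Klf15, a transcription factor that drives amino acid catabolism and responds to glucocorticoids, was the next. In eWAT Klf15 was at 24.4, 24.0, 26.7, 16.5 and 29.1 CPM in WT and at 46.4, 80.9, 68.3, 47.4 and 41 CPM in Acod1-/- libraries. In iWAT it was at 44.9, 28.7, 26.2, 24.6 and 37.5 CPM in WT and at 71.0, 60.1 and 74.9 CPM in Acod1-/- libraries. The groups did not overlap in either depot, although the lowest Acod1-/- library of eWAT was that of series 2. The log2 fold change was 1.17 ± 0.15 over depots (adjusted p = 0.00164, edgeR), 1.28 in series 1 and 0.76 in series 2.

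Slc43a1, which carries branched-chain and other large neutral amino acids across the plasma membrane, rose by 1.72 ± 0.24 on the log2 scale (adjusted p = 0.00197, edgeR). In eWAT Slc43a1 was at 11.3, 13.0, 13.3, 10.6 and 15.1 CPM in WT and at 30.9, 26.7, 54.8, 45.1 and 15.2 CPM in Acod1-/- libraries. Its iWAT levels were 12.3, 5.89, 9.55, 6.02 and 11 CPM in WT and 48.1, 45 and 19.4 CPM in Acod1-/- libraries. The series 2 Acod1-/- library of eWAT, at 15.2 CPM, lay beside the highest WT library at 15.1. The change was 2.02 in series 1 and 0.43 in series 2, and this difference passed its own test (adjusted p = 0.0645, edgeR).

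Further mitochondrial enzymes followed. Ivd, isovaleryl-CoA dehydrogenase of the leucine pathway, was at 112 ± 27.9 CPM (SD, n = 5) in WT and 234 ± 62.9 (n = 5) in Acod1-/- eWAT, and at 165 ± 23.7 (n = 5) and 300 ± 30.6 CPM (n = 3) in iWAT. Its log2 fold change was 0.98 ± 0.14 (SE, adjusted p = 0.00197, edgeR), with 1.18 in series 1 and 0.27 in series 2. Prodh, proline dehydrogenase, rose by 1.31 ± 0.19 (1.58 in series 1 and 0.33 in series 2). Gcdh, glutaryl-CoA dehydrogenase of lysine and tryptophan breakdown, rose by 0.58 ± 0.09 (0.65 and 0.34). Adhfe1, a hydroxyacid-oxoacid transhydrogenase of mitochondria, rose by 0.88 ± 0.13 (1.08 and 0.21). For Ivd, Prodh and Adhfe1 the series differed by the test of the difference, and for Gcdh the test did not pass (adjusted p = 0.347, edgeR).

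Acsm3, a mitochondrial acyl-CoA synthetase for medium-chain fatty acids, changed most among the 10 leading higher genes. In eWAT Acsm3 was at 0.208, 1.14, 1.77, 0.693 and 1.63 CPM in WT and at 19.1, 9.70, 20.4, 16.2 and 2.14 CPM in Acod1-/- libraries. The iWAT libraries held it at 1.42, 3.64, 1.33, 2.85 and 4.87 CPM in WT and at 23.7, 12.4 and 9.95 CPM in Acod1-/- libraries. The groups were apart in both depots, with eWAT Acod1-/- library 5 close to the WT range. Its log2 fold change was 3.12 ± 0.46 (adjusted p = 0.00197, edgeR), 3.65 in series 1 and 0.74 in series 2. The remaining leaders were Gpat4, the acyltransferase that starts glycerolipid synthesis at the endoplasmic reticulum, which rose by 0.76 ± 0.11 with 0.61 in series 2, and Smo, the signal transducer of the Hedgehog pathway, which rose by 0.56 ± 0.08 with 0.28 in series 2.

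Among the lower genes, Trac (ENSMUSG00000076928, GRCm38 chr14:54220521-54224206, plus strand), the constant part of the T cell receptor alpha chain, had values of its change that lay close together in both depots and both series. In eWAT Trac was at 7.52, 6.41, 15.1, 10.9 and 9.03 CPM in WT and at 1.33, 1.85, 1.08, 3.20 and 3.21 CPM in Acod1-/- libraries. In iWAT it was at 5.38, 4.98, 9.63, 9.57 and 16.0 CPM in WT and at 2.27, 1.03 and 2.12 CPM in Acod1-/- libraries. No Acod1-/- library reached the lowest WT library of its depot. The log2 fold change was -2.25 ± 0.29 over depots (adjusted p = 0.00164, edgeR), -2.20 in eWAT, -2.33 in iWAT, -2.32 in series 1 and -2.18 in series 2. Without iWAT WT library 5, which held the most T cell RNA, it was -2.13. Trac lies on the chromosome of Acod1 but far from it, starting at 54220521 against 103046977 for Acod1. Lgals3, Mmp14, Gmpr2, Ebf2 and Tdrd3, named below, lie on this chromosome as well, with Tdrd3 nearest to Acod1 at 87416639. Whether linked variants play a part was not tested. Of the 10 nearest protein-coding neighbours of Acod1, which do not include Trac, 8 were tested. Among these 0 were higher and 2 lower, such as Kctd12 at -0.58 ± 0.19, beside 11.5% higher and 13.2% lower over all genes tested. The lower count was 1 without eWAT WT library 2 or 4, eWAT Acod1-/- library 2, 3 or 4, iWAT WT library 4 or iWAT Acod1-/- library 1 or 2.

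Irf8, a transcription factor of monocyte and macrophage development, was at 75.9, 60.5, 40.4, 66.6 and 42.9 CPM in WT and at 15.5, 16.5, 12.0, 13.5 and 38.6 CPM in Acod1-/- eWAT. In iWAT Irf8 was at 28, 24.5, 21.8, 32.3 and 22.9 CPM in WT and at 12.8, 10.5 and 14.6 CPM in Acod1-/- libraries. The series 2 Acod1-/- library of eWAT was the only one near the WT range. Its log2 fold change was -1.34 ± 0.21 (adjusted p = 0.00277, edgeR), -1.72 in series 1 and -0.38 in series 2, and the series differed (adjusted p = 0.0636, edgeR). Blnk, an adaptor of immune receptor signalling in B cells and macrophages, went from 54.8 ± 33.3 CPM (SD, n = 5) in WT to 9.26 ± 5.91 (n = 5) in Acod1-/- eWAT and from 11 ± 4.47 (n = 5) to 3.68 ± 1.25 CPM (n = 3) in iWAT, a log2 fold change of -2.15 ± 0.34 (SE), with -0.96 in series 2.

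Tmsb10, thymosin beta 10, which binds actin monomers, fell from 287 ± 57.3 CPM (SD, n = 5) to 156 ± 20.2 (n = 5) in eWAT and from 329 ± 49.5 (n = 5) to 203 ± 23.7 CPM (n = 3) in iWAT. Its log2 fold change was -0.80 ± 0.11 (SE, adjusted p = 0.00197, edgeR), with -0.36 in series 2. Ppp1r18, which targets protein phosphatase 1 to actin, fell by 0.73 ± 0.11 on the log2 scale (-0.37 in series 2). Bin1, a membrane-bending protein, had the smallest of the leading changes at -0.46 ± 0.07 (-0.31 in series 2), and still its 8 Acod1-/- libraries lay below all WT libraries of their depot. Runx2, known as the master factor of bone formation, was at 9.52, 9.39, 6.25, 6.77 and 9.41 CPM in WT and at 3.93, 2.60, 2.12, 2.51 and 4.70 CPM in Acod1-/- eWAT. In iWAT Runx2 was at 9.49, 7.95, 9.87, 10.6 and 6.95 CPM in WT and at 4.83, 2.24 and 4.50 CPM in Acod1-/- libraries. The groups did not overlap, and the log2 fold change of Runx2 was -1.31 ± 0.19 (-0.80 in series 2). Lbh, a transcription cofactor, fell by 0.89 ± 0.13 (-0.72 in series 2), Lrrc17 by 0.96 ± 0.13 (-0.37), Ctsz, the lysosomal protease cathepsin Z, by 0.94 ± 0.14 (-0.37) and Traf5, an adaptor of tumour necrosis factor receptors, by 0.89 ± 0.14 (-0.52).

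**Figure D4:**
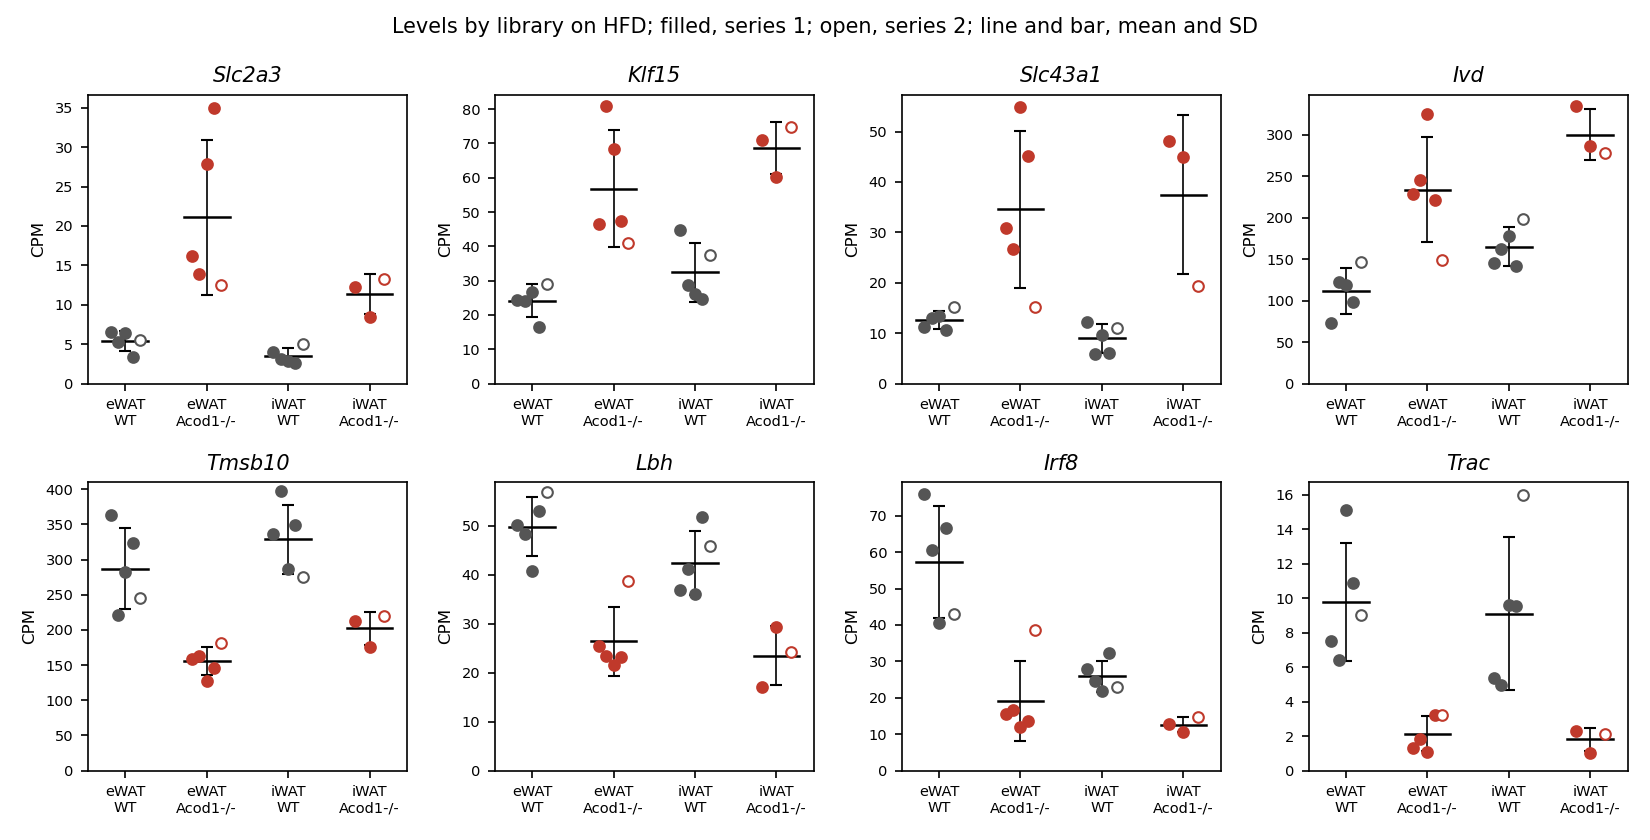
CPM of 8 leading genes in every HFD library by depot and genotype. Filled points are series 1, open points series 2, and lines and bars the mean and SD. The genotypes do not overlap within a depot for any of the 8 genes, and for Slc43a1, Ivd and Irf8 the open Acod1-/- point of eWAT lies next to the WT points.

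The 10 leading genes of each direction were apart in both depots in 20 of 20 cases, and all 20 stayed called in each of the 18 fits that left out 1 library. All 20 had the same sign in series 2, and all 20 a smaller change there than in series 1, with 6 passing the test of the difference. They were picked by the smallest adjusted p in the pooled fit of these same 18 libraries, which series 2 entered, so these counts are no independent check. Over all genes called, 911 of 1603 higher and 1299 of 1831 lower genes stayed called in each of those fits, and 59 and 129 were apart in both depots.

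Some genes were called over depots but in neither depot alone. Ebf2, a transcription factor of beige and brown adipocyte precursors, was at 17.2, 23.6, 19.3, 20.8 and 20.1 CPM in WT and at 34.6, 28.3, 33.0, 29.8 and 17.2 CPM in Acod1-/- eWAT. In iWAT Ebf2 was at 16.4, 16.3, 16.3, 16.7 and 18.5 CPM in WT and at 46, 37.6 and 24.3 CPM in Acod1-/- libraries. Overlap in eWAT came from Acod1-/- library 5. Its log2 fold change was 0.76 ± 0.14 over depots (adjusted p = 0.00401, edgeR), against adjusted p-values of 0.103 in eWAT and 0.190 in iWAT alone, and 0.10 in series 2. Kyat3, which converts kynurenine to kynurenic acid, rose by 0.81 ± 0.17 (0.05 in series 2), Zkscan7, a zinc finger gene, by 0.69 ± 0.14 (0.19), Tdrd3, a Tudor domain reader of methylated arginine, by 0.34 ± 0.07 (0.15) and Rnf113a2 by 0.47 ± 0.10 (0.16). Rnf113a2 is a near copy of Rnf113a1, so its reads may be split between the genes.

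Relb, the NF-kB subunit of the non-canonical arm, was the leading lower gene of this kind. In eWAT Relb was at 13.1, 17.2, 18.0, 22.8 and 22.9 CPM in WT and at 13.8, 14.7, 14.2, 14.1 and 13.5 CPM in Acod1-/- libraries. Its iWAT levels were 18.2, 14.8, 13.9, 16.6 and 17.9 CPM in WT and 9.35, 8.94 and 10.8 CPM in Acod1-/- libraries. The Acod1-/- libraries were tightly grouped, and in eWAT only WT library 1 lay below them. The log2 fold change of Relb was -0.56 ± 0.11 (adjusted p = 0.00438, edgeR), -0.51 in series 1 and -0.73 in series 2. Gmpr2, a GMP reductase, fell by 0.32 ± 0.07 (-0.12 in series 2), Hprt, the purine salvage enzyme often used as a reference gene, by 0.41 ± 0.09 (-0.11) and Asap1, an activator of Arf GTPase, by 0.34 ± 0.07 (-0.24). Npc2, which hands cholesterol out of the lysosome, was at -0.82 ± 0.18 over depots and at 0.11 in series 2, with -1.13 in series 1 (adjusted p of the difference 0.0542, edgeR).

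Gene lists for fat tissue place these genes in their pathways, each described by its counts and median beside 11.5% higher, 13.2% lower and a median of 0.02 over all genes tested. Breakdown of the branched-chain amino acids leucine, isoleucine and valine had the largest share of higher genes among the lists described here. Of 21 members tested 19 were higher and 0 lower, with a median log2 fold change of 0.54 over depots, 0.66 in eWAT and 0.43 in iWAT. They ran from the first transamination by Bcat2 (0.82 ± 0.16) and the dehydrogenase complex of Bckdha (0.53 ± 0.13) to Mccc1 of the leucine arm (0.60 ± 0.11), Acad8 of the valine arm (0.39 ± 0.07) and Aldh6a1 (0.81 ± 0.13), which oxidises methylmalonate semialdehyde. The count was between 18 and 19 whichever library was left out. In series 2, 15 of 21 were positive with a median of 0.12, against 0.62 in series 1. Mccc1 (0.50) and Aldh6a1 (0.34) were positive in series 2, whereas Bcat2 (-0.07) and Bckdha (-0.11) were not.

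The TCA cycle, from which the substrate of Acod1 comes, was higher in 15 of 21 genes and lower in 0, with a median of 0.31 (0.42 in eWAT and 0.25 in iWAT). Citrate synthase Cs rose by 0.39 ± 0.12. Suclg2 of succinyl-CoA ligase rose by 0.47 ± 0.09, Dlst of the oxoglutarate dehydrogenase complex by 0.40 ± 0.08, Pdha1 of pyruvate dehydrogenase by 0.43 ± 0.10 and fumarase Fh1 by 0.43 ± 0.10. In series 2, 20 of 21 members were positive with a median of 0.22, against 0.34 in series 1. Cs, at 0.41, had a value in series 2 close to that over all libraries.

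Subunits of the respiratory chain were called in part. Of 51 nuclear genes 17 were higher and 0 lower, with a median of 0.29, for example Ndufs1 (0.42 ± 0.09), Uqcrc2 (0.43 ± 0.09) and Ndufa9 (0.28 ± 0.09). This count fell to 9 without eWAT Acod1-/- library 2, to 11 without eWAT WT library 2 and to 11 without iWAT Acod1-/- library 2, and rose to 29 without eWAT Acod1-/- library 5 and to 27 without iWAT Acod1-/- library 3. Of the 13 subunits encoded by mitochondrial DNA 9 were higher and 0 lower, with a median of 0.68. Among them were mt-Atp6 (0.85 ± 0.23), mt-Co2 (0.84 ± 0.24), mt-Co3 (0.71 ± 0.21) and mt-Cytb (0.76 ± 0.24). By contrast, mt-Nd1 (0.34 ± 0.22, adjusted p = 0.306, edgeR), mt-Nd2 (0.29 ± 0.23, adjusted p = 0.416) and mt-Co1 (0.39 ± 0.20, adjusted p = 0.189) did not pass. Levels were very uneven. Group means ran from 22.1 to 46.4 CPM for mt-Atp6, 37.4 to 86.9 for mt-Co2 and 29.4 to 50.5 for mt-Co3. Called mt-Nd4l and mt-Atp8 were below 5 CPM in each group, and called mt-Cytb, mt-Nd4 and mt-Nd5 at 4710 CPM or more. For mt-Co1 the means ran from 19300 to 27600 CPM. Reads on mitochondrial genes made up 13.2% of counts in eWAT Acod1-/- library 2 and at most 9.56% in any other HFD library. The count of higher subunits was 6 without that library and ran from 6 to 10 over all single libraries left out. In series 2 neither list kept its sign, with medians of -0.10 for the nuclear and -0.15 for the mitochondrially encoded genes.

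Lipid handling was higher in part. For fatty acid oxidation 6 of 23 genes were higher and 0 lower (median 0.20), with Echs1 (0.59 ± 0.12), Acad10 (0.59 ± 0.13), Hadh (0.42 ± 0.10) and Eci1 (0.48 ± 0.13) among those called and Cpt1a, the gatekeeper of mitochondrial import, at -0.33 ± 0.13 (adjusted p = 0.101, edgeR). In series 2, 22 of 23 were positive, with a median of 0.18. For fatty acid and triglyceride synthesis 7 of 20 were higher and 0 lower (median 0.31, with 0.47 in eWAT, 0.13 in iWAT and 0.29 in series 2). These were led by Pck1 (1.61 ± 0.28), which makes glycerol 3-phosphate precursors in fat, and by Thrsp (1.08 ± 0.23), Acaca (0.73 ± 0.18), the acetyl-CoA carboxylase, and the desaturase Scd1 (0.80 ± 0.20), while Acly was at 0.19 ± 0.18. Pck1 was at -0.03 in series 2 and Thrsp at 0.01, whereas Acaca was at 0.47.

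Lipolysis and lipid droplet genes were higher in 4 of 16 cases and lower in 0 (median 0.25, with -0.03 in series 2). The beta-3 adrenergic receptor Adrb3 rose by 2.09 ± 0.39, hormone-sensitive lipase Lipe by 0.56 ± 0.15 and the droplet coat Plin1 by 0.49 ± 0.14, while the lipase Pnpla2 was at 0.21 ± 0.14. In eWAT Adrb3 was at 50.9, 139, 292, 148 and 264 CPM in WT and at 939, 802, 1160, 1150 and 180 CPM in Acod1-/- libraries. The iWAT libraries held it at 65.1, 68.0, 231, 162 and 168 CPM in WT and at 824, 532 and 180 CPM in Acod1-/- libraries. The 6 series 1 Acod1-/- libraries were far above all WT libraries, and both series 2 Acod1-/- libraries, at 180 CPM, lay within the WT range, where the change was -0.21. Genes of insulin response and glucose uptake were higher in 7 of 14 and lower in 1 (median 0.33, with 0.05 in series 2), a count of 4 higher without eWAT Acod1-/- library 3. They included the insulin-regulated glucose transporter Slc2a4 (0.93 ± 0.20), the receptor Insr (0.52 ± 0.11), its substrate Irs1 (0.83 ± 0.17) and the phosphodiesterase Pde3b (0.70 ± 0.14), which were at 0.04, 0.07, -0.10 and 0.54 in series 2.

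Adipocyte identity and hormone genes were less uniform, with 6 of 18 higher and 1 lower. Cfd, the complement protease adipsin, rose by 2.35 ± 0.45, Retn, resistin, by 1.26 ± 0.34 and Nrg4, a batokine, by 0.83 ± 0.20, while Adipoq was at 0.31 ± 0.19 (adjusted p = 0.274, edgeR) and Lep at -0.62 ± 0.37 (adjusted p = 0.268). Cfd changed sign in series 2 (-0.55), and the series differed (adjusted p = 0.0210, edgeR). Lep was lower in series 1 alone (-1.49, adjusted p = 0.00217, edgeR) and at 0.49 in series 2, and here too the series differed (adjusted p = 0.0602, edgeR). In eWAT the list's median was 0.53, in iWAT -0.04 and in series 2 -0.12. Thermogenic genes were split, with 3 of 12 higher and 2 lower. Adrb3, Ebf2 and the coactivator Ppargc1a (0.74) were higher, whereas Dio2, which activates thyroid hormone, fell by 1.98 ± 0.39 and the beige fat regulator Prdm16 by 0.50 ± 0.12. Dio2 was low, with WT and Acod1-/- means of 2.26 and 0.762 CPM in eWAT and 3.16 and 0.527 in iWAT. It passed the filter of 1 CPM through the WT libraries. Cidea was at 0.38 ± 0.30 over depots, with -0.30 in eWAT and 1.18 in iWAT. Neither its iWAT change (adjusted p = 0.192, edgeR) nor the difference between depots (adjusted p = 0.51, edgeR) passed. The list's median was 0.07 in eWAT and 0.44 in iWAT, and Ucp1 did not reach 1 CPM in both depots. Prdm16 was at -0.42 and Dio2 at -0.52 in series 2.

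Of 19 macrophage genes tested 14 were lower over depots and 0 higher, with a median of -1.38 over depots, -1.77 in eWAT and -1.12 in iWAT. Adgre1, which encodes the macrophage surface protein F4/80, was at 369, 235, 83.3, 258 and 61.3 CPM in WT and at 36.8, 12.8, 15.1, 19.1 and 97.7 CPM in Acod1-/- eWAT. In iWAT Adgre1 was at 53.3, 26.6, 32.8, 64.6 and 19.5 CPM in WT and at 18.2, 11.6 and 16.5 CPM in Acod1-/- libraries. The highest Acod1-/- library and the lowest WT library of eWAT were those of series 2, where their order was reversed. The log2 fold change of Adgre1 was -1.98 ± 0.45 over depots (adjusted p = 0.00745, edgeR) and 0.25 in series 2, and the series differed (adjusted p = 0.0704, edgeR). Cd68 fell by 2.04 ± 0.41, the complement subunit C1qb by 1.72 ± 0.30, Ms4a7 by 2.42 ± 0.44, lysozyme Lyz2 by 1.56 ± 0.29 and the folate receptor Folr2 by 1.69 ± 0.32. Summed over the list, levels ran from 1940 to 6350 CPM in WT and from 644 to 2070 in Acod1-/- eWAT, and from 790 to 1910 and from 512 to 772 in iWAT. The list's median in series 2 was -0.19, with Ms4a7 at -0.89, Cd68 at -0.36 and Lyz2 at -0.05.

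Most genes of the programme of lipid-associated macrophages, which line dying adipocytes, were lower too. Of 21 members 15 were lower and 1 higher, with a median of -1.82 (-2.37 in eWAT and -0.67 in iWAT). Trem2, the lipid receptor that governs this state, fell by 2.63 ± 0.59 and its adaptor Tyrobp by 1.92 ± 0.38. Lgals3, galectin 3, fell by 1.88 ± 0.32, the beta-glucan receptor Clec7a by 2.01 ± 0.39 and the protease Ctsd by 0.92 ± 0.17. The median in series 2 was -0.16, with Trem2 at -0.38 and Clec7a at -0.52. The list's sum, most of it from genes that adipocytes also express, overlapped between genotypes in both depots. It ran from 28000 to 34500 CPM in WT and from 22600 to 41100 in Acod1-/- eWAT. In iWAT the sum ran from 22900 to 29200 CPM in WT and from 24800 to 27700 in Acod1-/- libraries. Of 28 lysosome genes 21 were lower and 0 higher (median -0.76), among them Hexa (-0.95 ± 0.18), Grn (-0.94 ± 0.18), Ctsd and Lamp1 (-0.39 ± 0.10), and Lamp2 was at -0.22 ± 0.12 (adjusted p = 0.211, edgeR). Their median in series 2 was 0.04, and Lamp1 was at 0.16.

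Chemokines and innate sensors were lower in part. Of 18 chemokine ligands 10 were lower and 0 higher, with a median of -1.10 over depots and of -1.05 in each depot. Ccl2, the main attractant of monocytes, fell by 1.69 ± 0.38, Ccl7 by 1.81 ± 0.35, Ccl9 by 1.75 ± 0.34 and Cxcl16 by 1.09 ± 0.25. In series 2 these were at -0.54, -0.86, -0.18 and -0.52, and 15 of 18 were negative with a median of -0.50. Of 21 genes of Toll-like receptors and the inflammasome 12 were lower and 0 higher (median -0.62), with Tlr1 at -1.79 ± 0.40, Tlr2 at -1.30 ± 0.26, Tlr7 at -1.83 ± 0.39 and the protease Casp1 at -1.14 ± 0.20. Their median in series 2 was -0.05, with Tlr1 at -0.72 and Tlr2 at 0.10. Il1b, Tnf and Nlrp3 did not reach a mean of 1 CPM in both depots. Of 20 interferon-response genes 4 were lower and 0 higher (median -0.14, with -0.13 in series 2), for example Oas1a (-1.15 ± 0.32) and Zbp1 (-0.67 ± 0.21), while Ifit1 was at -0.20 ± 0.20 and Ifit2 at -0.16 ± 0.11. This count was 2 without eWAT WT library 2 or 4, eWAT Acod1-/- library 2, iWAT WT library 4 or iWAT Acod1-/- library 3.

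Antigen presentation by MHC class II was lower in all 10 genes tested, with a median of -0.85 (-1.26 in eWAT and -0.51 in iWAT). H2-DMb1, which helps load peptides, was at 87.0, 99.3, 104, 122 and 87.2 CPM in WT and at 32.2, 13.7, 15.8, 16.3 and 74.9 CPM in Acod1-/- eWAT. In iWAT H2-DMb1 was at 49.6, 50.2, 36.7, 46.2 and 34.2 CPM in WT and at 18.6, 11.9 and 19.4 CPM in Acod1-/- libraries. No Acod1-/- library overlapped WT, and the series 2 library of eWAT came closest. H2-DMb1 fell by 1.57 ± 0.27, H2-DMa by 0.93 ± 0.18, H2-Aa by 0.85 ± 0.24 and H2-Ab1 by 0.85 ± 0.22. The costimulatory ligand Cd80 fell by 1.39 ± 0.28 and the costimulatory receptor Cd40 by 1.45 ± 0.31. Cd80 was low in iWAT, with means of 1.72 CPM in WT and 0.741 in Acod1-/- libraries. The depots were uneven for H2-Aa and H2-Ab1, at -1.32 and -1.23 in eWAT. In iWAT H2-Aa was at -0.25 (adjusted p = 0.701, edgeR) and H2-Ab1 at -0.36 (adjusted p = 0.52, edgeR), although all 10 genes were negative in both depots. All 10 were negative in series 2, with a median of -0.45. H2-DMb1 changed less in series 2 (-0.49) than in series 1 (-2.07), and the series differed (adjusted p = 0.0702, edgeR).

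T cell genes were lower in 6 of 11 and higher in 0, with a median of -1.33 (-1.10 in eWAT and -1.60 in iWAT). Beside Trac, Cd28, a costimulatory receptor, fell by 1.33 ± 0.43, and Cd3d, Cd3g, Trbc2 and Ccr7 were called as lower with calls lost in 12, 9, 7 and 2 of the 18 fits that left out 1 library, while Cd3e was at -0.58 ± 0.51 (adjusted p = 0.454, edgeR). The count was 2 without eWAT WT library 4 or iWAT Acod1-/- library 1, and 3 without eWAT Acod1-/- library 1 or 3, iWAT WT library 5 or iWAT Acod1-/- library 3. All 11 were negative in series 2, with a median of -2.18, where the iWAT pair includes WT library 5 with its high T cell sum. Levels in iWAT were low, with WT and Acod1-/- means of 3.05 and 0.377 CPM for Cd3d and 1.73 and 0.553 for Cd28. For Ccr7 they were 1.64 and 0.282 CPM and for Trbc2 6.55 and 0.915. The WT SD was 4.84 CPM for Cd3d, 2.54 for Ccr7 and 12.1 for Trbc2. In iWAT these genes passed the filter of 1 CPM through the WT libraries, which favours genes lower in Acod1-/- fat.

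Matrix and stroma were lower as well. Of 30 collagen and matrix genes 21 were lower and 0 higher, with a median of -0.71 (-0.74 in eWAT and -0.46 in iWAT). The fibrillar collagens Col1a1 and Col1a2 fell by 0.81 ± 0.27 and 0.75 ± 0.21, the protease inhibitors Timp1 and Timp2 by 2.16 ± 0.44 and 0.94 ± 0.19, the membrane protease Mmp14 by 1.21 ± 0.24 and the fibrogenic cytokine Tgfb1 by 0.96 ± 0.18. The depots were uneven for the collagens named. Col1a1 was at -1.39 in eWAT and at -0.07 in iWAT (adjusted p = 0.910, edgeR), and Col1a2 at -1.08 and -0.32 (adjusted p = 0.523 in iWAT). This list moved with the series. Its median was -1.04 in series 1 and 0.24 in series 2, 23 of 30 members were positive in series 2, and 17 of 30 passed the test of the difference, against 6.78% of all genes. Col1a1 was at 0.24 and Timp1 at -0.70 in series 2. Of 11 adipose progenitor markers 6 were lower and 1 higher (median -0.49, with -0.31 in series 2), with Pdgfrb (-0.65 ± 0.12), Cd34 (-0.51 ± 0.11), Ly6a (-0.49 ± 0.14) and Icam1 (-0.70 ± 0.17) called. Pdgfra was at -0.60 ± 0.21, a call lost without eWAT WT library 2, and at 0.35 in series 2.

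Immediate early genes, which report recent stimulation of a cell and also the handling of tissue, were lower in 6 of 18 and higher in 0 (median -0.36). Fos fell by 2.07 ± 0.39, Egr1 by 0.98 ± 0.19, Junb by 0.99 ± 0.19 and Jund by 0.51 ± 0.14, while Fosb was at -0.73 ± 0.40. In series 2 the median was -0.44, with Egr1 at -1.16, Junb at -0.85 and Jund at -0.45, while Fos was at -0.38 there and at -2.75 in series 1 (adjusted p of the difference 0.0762, edgeR). Targets of NRF2, the factor that itaconate can activate, were called higher in 5 of 17 and lower in 4 (median 0.12, with 0.01 in series 2). The lower count was 2 without eWAT WT library 4 or eWAT Acod1-/- library 1, 2 or 4, and 2 at an adjusted p under 0.05. The glutathione transferases Gsta4 and Gsta3 rose by 1.78 ± 0.29 and 1.09 ± 0.25 and Gclc, of glutathione synthesis, by 0.38 ± 0.10, whereas the haem oxygenase Hmox1 fell by 1.30 ± 0.23 and the ferritin light chain Ftl1 by 0.73 ± 0.15. In series 2 Gsta4 was at 0.08 and Hmox1 at -0.02, against 2.17 and -1.66 in series 1, and both differences passed (adjusted p = 0.0520 and 0.0526, edgeR). Gsta3 was at 0.47, Gclc at 0.03 and Ftl1 at -0.16 in series 2. Nqo1 was at 0.25 ± 0.22 (adjusted p = 0.473, edgeR).

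**Figure D5:**
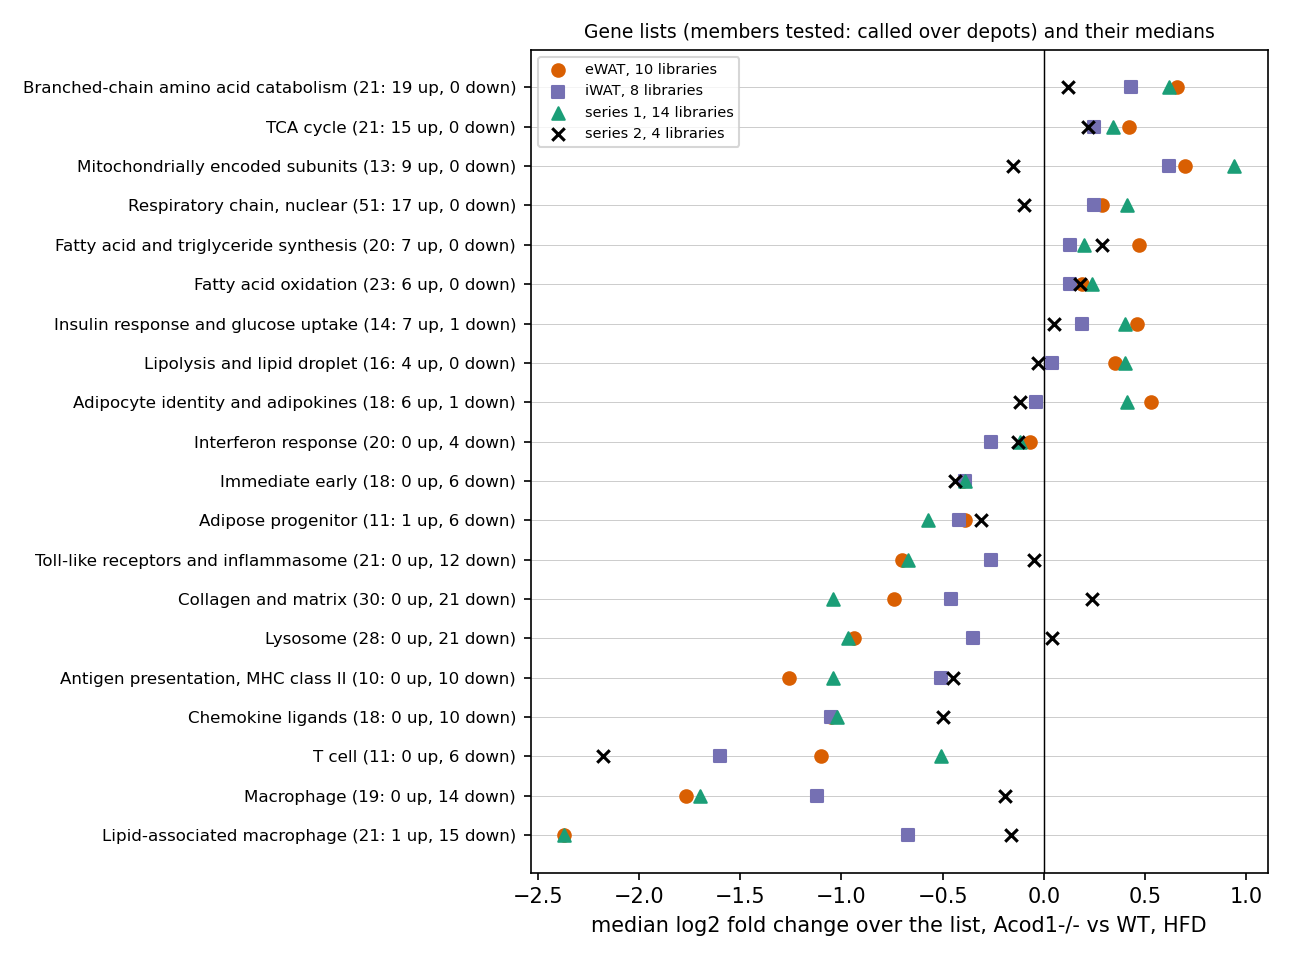
Median log2 fold change of 20 gene lists in eWAT (circles), iWAT (squares), series 1 (triangles) and series 2 (crosses), with the number of members tested and called over depots after each name. Circles, squares and triangles lie on the same side of 0 for all lists but adipocyte identity. The crosses cross 0 for collagen, lysosome, lipolysis, adipocyte identity and both respiratory chain lists.

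Markers of further cell types were read for the whole list in each case. Of 8 B cell genes tested 0 were higher and 0 lower over depots, and the same held for 5 red blood cell genes and for 2 mesothelium genes. The B cell medians had opposite signs, at 0.74 in eWAT, where 1 member was higher in the fit of that depot, and at -1.66 in iWAT. Without iWAT WT library 5, 1 B cell gene was higher over depots. Of 12 endothelial genes 1 was lower, a count of 0 to 2 when single libraries were left out. Of 6 mast cell genes 4 were lower, a count of 2 without eWAT WT library 1, 2 or 4, eWAT Acod1-/- library 2 or 3, or iWAT WT library 4. Mast cell markers summed to 203, 158, 29.5, 166 and 23.2 CPM in the WT and to between 18.7 and 36.6 in the Acod1-/- libraries of eWAT. Of 4 skin and mammary epithelium genes tested 3 were higher, and 0 without iWAT Acod1-/- library 2. None of the 12 epididymal epithelium genes was tested. Macrophage sums were lower in Acod1-/- than in WT libraries of a depot, except that eWAT Acod1-/- library 5 (2070 CPM) lay above eWAT WT library 5 (1940 CPM). The part of these sums in the changes of adipocyte, matrix and mitochondrial genes was not tested.

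Promoters of the genes that moved together were searched for short spelled motifs on both strands, in RefSeq windows of GRCm38.p6 from 250 bases before to 50 after a start site. Windows were found for 1198 of the 1603 higher and 1405 of the 1831 lower genes and for 10350 of all 13908. The letters GAGGAAGT, a core site of the macrophage factor PU.1, were in windows of 6.76% of lower genes, 3.26% of higher genes and 3.77% of all genes with a window. The AP-1 letters TGANTCA were in 9.11% of lower, 4.84% of higher and 6.35% of all. The lysosomal CLEAR core TCACGTGA was in 2.42% of lower, 1% of higher and 2.12% of all, the NF-kB letters GGGANTTCC in 2.99%, 1.75% and 2.67%, the NRF1 letters TGCGCATGC in 2.49%, 3.76% and 3.33%, and the ERR letters TCAAGGTCA in 0.498%, 0.250% and 0.329%. These shares are a description, and a match is not a bound site. For 3 lower genes the 150 bases before the start site are shown, 5′ to 3′ on the minus strand of GRCm38.p6, with the match in capitals. They are Tlr1 at chr5:64933559-64933708 with the PU.1 letters, Cd68 at chr11:69666171-69666320 with 2 AP-1 matches, and Ctsd at chr7:142387828-142387977 with the CLEAR core.
Tlr1: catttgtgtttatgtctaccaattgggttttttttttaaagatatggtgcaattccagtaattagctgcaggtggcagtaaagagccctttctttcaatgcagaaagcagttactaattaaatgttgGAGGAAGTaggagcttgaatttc
Cd68: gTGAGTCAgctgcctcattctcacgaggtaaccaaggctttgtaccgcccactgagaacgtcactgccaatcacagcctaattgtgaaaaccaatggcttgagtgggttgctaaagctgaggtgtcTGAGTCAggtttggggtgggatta
Ctsd: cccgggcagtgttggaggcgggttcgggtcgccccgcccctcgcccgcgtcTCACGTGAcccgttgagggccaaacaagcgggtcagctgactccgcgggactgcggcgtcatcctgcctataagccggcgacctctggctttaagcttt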

How the data were processed

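The authors prepared directional mRNA libraries from snap-frozen fat, trimmed reads with cutadapt, removed contaminants and aligned the rest with STAR to GRCm38. They deposited raw counts of reads per gene for each library, with 2 columns of FPKM, which the authors derived and which were not used here. The program and strand setting used for counting are not given in the sources used here. Rows starting with __ were dropped. These held reads on no feature (6.41% to 11.9% of reads) and ambiguous reads (1.52% to 2.07%). Of 54752 IDs, 54723 had a symbol in the GENCODE annotation of GRCm38.

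A gene was kept when it averaged 1 CPM or more in the HFD libraries of both depots. Counts were normalized by TMM and tested with edgeR 4.0.16 in R 4.3.3 (quasi-likelihood test, depot as a block, Benjamini-Hochberg adjustment over all genes tested, called under 0.1). Groups came from the GEO labels. Separate fits gave each depot, the genotype by depot term, the larger of both depots' p-values and the genotype by series term. CPM values are TMM-scaled. DESeq2 1.42.0 and limma 3.58.1 were alternatives. Functions were tested on simulated data. P-values measure the spread between libraries.

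Named genes are Acod1 and protein-coding genes at 5 CPM or more on average in each depot: per direction the 10 with the smallest adjusted p over depots and 1 sign in both, the 5 called in neither depot alone, the 5 with the smallest p in both depots (all among the former) and up to 3 that differ between depots (none passed), and for each list described its first 2 members and up to 4 called, also below 5 CPM. Trac, a receptor constant segment, was named through the T cell list. Some genes that this rule names are not reported here. Members and lists were chosen with earlier results of these data known. The comparisons of series were added after the data were seen. The replicate numbers did not pair WT with Acod1-/- libraries. Python 3.11.15, scipy 1.17.1 and matplotlib 3.10.9 served for exact tests and plots.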

Additional observations from a re-analysis of the deposited data

Results flagged for a closer look

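Among the 30 leading genes and 13 marker lists, 129 groups of 5 libraries were searched for a library far from the others, which chance alone gives in about 1 group in 20, and 12 had one. The uneven epididymal epithelium sums of eWAT were not part of this search. In eWAT Acod1-/- library 5, of series 2, the expression of Lbh (38.7 CPM), Traf5 (8.15 CPM) and Irf8 (38.6 CPM) was above that of the other Acod1-/- libraries, and so were the sums of skin and mammary epithelium (29.9 CPM) and red blood cell markers (1110 CPM). In iWAT WT library 5, also of series 2, Adhfe1 (153 CPM), Ebf2 (18.5 CPM) and the T cell sum (155 CPM) were above the other WT libraries. The remaining outlying values were Gmpr2 at 34.1 CPM and the T cell sum of 61.8 CPM in eWAT WT library 4, and in eWAT Acod1-/- library 2 the skeletal muscle sum of 211 CPM and the sum of the lipid-associated macrophage list, 41100 CPM, most of which comes from genes that adipocytes also express, such as Lpl.

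For 7 of the 30 leading genes the genotype change differed between series 2 and series 1 by the test of that difference (edgeR, adjusted p between 0.0542 and 0.0762). The change in series 2 minus that in series 1 was -1.59 for Slc43a1, -0.93 for Ivd, -1.25 for Prodh, -2.94 for Acsm3 and -0.89 for Adhfe1, all higher over depots, and 1.35 for Irf8 and 1.25 for Npc2, both lower over depots. In each case the change was smaller in series 2, and for Npc2 it was of the opposite sign there.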

How the results depend on the processing

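Counts over depots were within 1.5 times of 1603 higher and 1831 lower genes under other filters, DESeq2 size factors, the DESeq2 Wald test, limma with duplicateCorrelation, a term for the header series, equal weight of the depots, all 25 libraries and no libraries of 17 or 18 weeks. They were not at an adjusted p under 0.05 (972 higher), in series 2 alone (605 and 475) or without eWAT Acod1-/- 5 and iWAT Acod1-/- 3 (2488 higher), and leaving out 1 library gave 1163 to 2024 higher and 1471 to 2248 lower. Calls of a depot difference were 0, and 1 with no filter, with 1 CPM in every library, in limma or with all 25 libraries, 8 and 3 in DESeq2, 320 and 129 in series 1, 294 and 116 without that pair and 0 to 74 and 0 to 47 without 1 library. Calls in both depots were 0, and 6 and 6 in DESeq2, 65 and 110 in series 1 and 66 and 106 without the pair. In eWAT alone DESeq2 gave 1289 higher, and leaving out 1 library 248 to 1397 higher and 670 to 2017 lower (fewest without Acod1-/- 3, most without Acod1-/- 5). In iWAT alone DESeq2 gave 344 and 526, and leaving out 1 library 0 to 1159 and 0 to 1298 (most without Acod1-/- 3). With a replicate block the counts over depots were 1326 and 1715, but same-numbered WT and Acod1-/- libraries did not deviate together (correlations from -0.278 to 0.288 over 8 pairs), so the number is no pairing. Of 141 named genes 30 had the opposite sign in series 2 alone, 21 of them called over depots. With Lep, these were Npc2 0.11, mt-Atp6 -0.09, mt-Co2 -0.15, mt-Co3 -0.19, mt-Cytb -0.14, Bcat2 -0.07, Bckdha -0.11, Pck1 -0.03, Lipe -0.01, Adrb3 -0.21, Irs1 -0.10, Lep 0.49 (not called over depots, called at -1.49 in series 1), Cfd -0.55, Retn -0.16, Adgre1 0.25, Tlr2 0.10, Tlr7 0.05, Mx1 0.18, Lamp1 0.16, Col1a1 0.24, Col1a2 0.23 and Pdgfra 0.35 on the log2 scale. The cause of these shifts was not tested. The 3 iWAT Acod1-/- libraries and 1 library per group in series 2 limit the precision, and so do low counts for Acod1 and several T cell genes.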

Other observations

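Further lists, described by counts over depots, were smaller or less steady. Of 17 proliferation genes 8 were lower and 0 higher (median -0.68, with -1.12 in eWAT and -0.08 in iWAT), such as the kinase Cdk1 (-0.93 ± 0.26), the replicative helicase subunit Mcm2 (-0.71 ± 0.19) and Stmn1 (-1.01 ± 0.27), while Mki67 was at -0.45 ± 0.35. This count was 5 without eWAT WT library 1 or eWAT Acod1-/- library 1, 3 or 4 and 14 without iWAT Acod1-/- library 2, and the median in series 2 was 0.29. Of 19 genes of the unfolded protein and integrated stress response 5 were lower and 1 higher (median -0.21). Ddit3, the stress factor CHOP, fell by 0.51 ± 0.12 and was at -0.50 in series 2, Trib3 fell by 0.59 ± 0.14, and asparagine synthetase Asns rose by 0.74 ± 0.14 and was at 0.46 in series 2.

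Of 18 circadian clock genes 3 were higher, among them Per3 (0.85 ± 0.33) and Nr1d1 (0.58 ± 0.21), a count of 0 without eWAT Acod1-/- library 3 and 1 without eWAT WT library 4, eWAT Acod1-/- library 1 or iWAT Acod1-/- library 1. Of 18 cholesterol synthesis genes 1 was higher and 2 lower, the lower count running from 1 to 7 when single libraries were left out. Of 3 neutrophil genes tested S100a8 (-1.42 ± 0.41) and Csf3r (-1.09 ± 0.31) were lower, and were at 0.44 and 0.04 in series 2. Of 9 skeletal muscle genes 1 was higher and 0 lower, beside 11.5% higher and 13.2% lower over all genes tested. The higher count was 1 to 4 when single libraries were left out. In iWAT the muscle markers summed to 539, 102, 111, 91.7 and 292 CPM in WT and to 735, 480 and 193 CPM in Acod1-/- libraries. The part of muscle RNA in the changes of mitochondrial genes was not tested.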
